A study of Homo sapiens with 24 samples.

Results

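The expression level of every gene in scramble ARPE-19 cells was taken from the transcript abundances of 6 RNA sequencing libraries. ARPE-19 is an established human cell line that arose spontaneously from retinal pigment epithelium (RPE). The scramble cells received a control small interfering RNA of scrambled sequence, and the columns labelled Scramble in the table of all samples were used: 3 biological samples, replicates 1 to 3, with 2 technical replicates each. They are 6 of the 24 libraries and 3 of the 12 biological samples of the series, whose other groups received siRNA to Nrf2, to Pink1 or to both and are not described here. All groups share the cell line and the transfection with an siRNA. The labels describe a scratch wound made at near-confluence and imaged a day later. Whether RNA came from wounded or from intact wells is not stated in them. A line kept in culture on plastic, with no choroid or photoreceptors beside it, stands here for the RPE.

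The RPE is a single layer of pigmented epithelial cells between the photoreceptors and the choroid. It recycles the visual chromophore, engulfs shed photoreceptor outer segments, makes melanin, carries nutrients and lactate, and secretes the basement membrane it rests on. When RPE cells lose contact with their neighbours they can pass through an epithelial-to-mesenchymal transition (EMT), in which cell-cell adhesion gives way to motility and matrix production. Mitochondria power this tissue, and the kinase PINK1 marks damaged ones for removal by mitophagy, while the factor NFE2L2 (NRF2) drives antioxidant genes.

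Levels are given in TPM, a length-corrected abundance scaled to a fixed total per library, which can be compared between genes of one library. Each sample's level is the mean of its 2 technical replicates, and means ± SD are over the 3 biological samples (n = 3). The table lists 24053 identifiers, of which 14445 are protein-coding. In each library between 7172 and 7928 identifiers were listed at 0, and 3358 were listed at 0 in all 6, 461 of them protein-coding. A mean of at least 1 TPM was reached by 13684 identifiers, at least 10 TPM by 7510, at least 100 TPM by 991 and at least 1000 TPM by 85. Of the protein-coding genes, 80.4% reached 1 TPM, 48.9% reached 10 TPM and 6.29% reached 100 TPM, with a median of 9.53 TPM. These shares are the background for each gene list below, and they cover the genes of the table alone, each of which reached at least 0.1 TPM in at least 1 of the 24 libraries. The library depth is unknown, because TPM values keep none, so a gene listed at 0 may still be transcribed.

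A single identifier without a name in the tables used, ENSG00000226958, held 34.57%, 36.35% and 32.40% of all TPM in replicates 1, 2 and 3. It lowers the TPM of every other gene in proportion. The spliceosomal U4 RNAs RNU4-1 and RNU4-2 came next at 22319 ± 2196 and 18820 ± 2444 TPM (SD, n = 3), although they are short, non-polyadenylated RNAs in libraries made with an mRNA kit. Protein-coding genes made up 56.45%, 55.45% and 58.32% of the total. Ranks within the protein-coding genes, which depend little on the other classes, are used below.

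The most abundant mRNA was EEF1A1, the elongation factor that brings aminoacyl-tRNA to the ribosome, at 10525, 8488 and 9050 TPM in the 3 samples. FTH1, the heavy chain of the iron store ferritin, followed at 6797, 7677 and 8415 TPM. ACTG1 (4462 ± 338 TPM), VIM (4297 ± 370), GAPDH (4250 ± 252) and ACTB (3884 ± 103) lay close together below them. So a housekeeping set led the transcriptome, with the mesenchymal filament protein vimentin in its midst at rank 4 of the protein-coding genes. RPS2, PABPC1, TPT1 and RPL37A completed the first 10, between 2531 and 3103 TPM, and these 10 genes held 7.93% ± 0.126 of the protein-coding TPM. The first 100 held 29.8% ± 1.14 and the first 1000 held 63.5% ± 1.02 (SD, n = 3).

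Ribosomal proteins supplied 13 of the first 30 protein-coding genes and 58 of the first 100. All 79 cytosolic ribosomal protein genes reached 100 TPM, against 6.29% of protein-coding genes, with a median of 1143 TPM and a range from RPL22 at 161 to RPS2 at 3103 TPM. Together they held 16.7% ± 1.20 of the protein-coding TPM. Genes of this family have many processed pseudogenes, and the counting could split reads among copies, so single values are uncertain. The same holds for EEF1A1, FTH1, GAPDH and the actins.

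Past the translation machinery, few of the first 30 protein-coding genes mark a cell type. TGFBI, a matrix protein that binds integrins and collagen, was at 2309, 2449 and 2429 TPM. CRYAB, a small heat shock protein abundant in the lens and also made by RPE, was at 2800, 1945 and 2369 TPM. SPARC, a collagen-binding matricellular glycoprotein, was at 2235, 1729 and 1865 TPM, and CTSD, the lysosomal protease that digests engulfed outer segments in RPE, was at 1592, 1722 and 1820 TPM. TGFBI was the steadiest of the 4, with a coefficient of variation (SD over mean) of 3.17%, and CRYAB the least steady with 18.02%. ANXA2, a membrane and actin linker, was at 2043 ± 74.9 TPM, and the actin-binding peptide TMSB4X at 1761 ± 99.3 TPM.

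**Figure D1:**
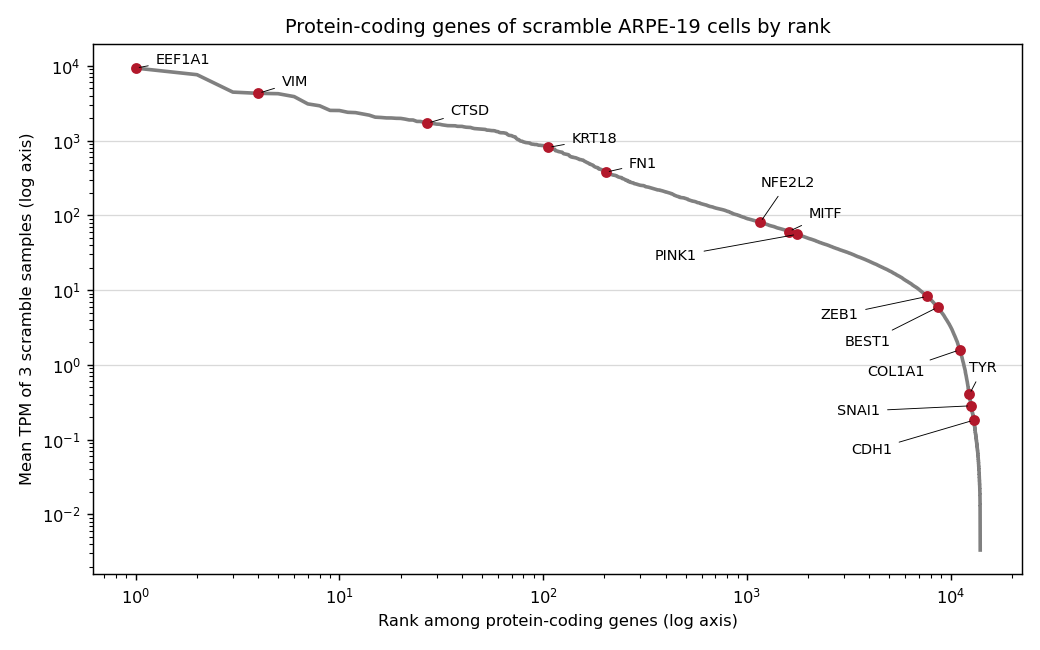
Mean TPM of the 3 scramble samples (log axis) against rank among protein-coding genes (log axis); the grey line is every protein-coding gene above 0 and red points are named genes. VIM stands at rank 4 and KRT18 at rank 106, while COL1A1, TYR, SNAI1 and CDH1 lie on the steep right-hand end, from rank 11089 (COL1A1) to 12972 (CDH1).

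Transcription factors that specify the RPE were present. PAX6, which sets eye fate, was at 82.6, 97.3 and 89.0 TPM in the 3 samples. MITF, the regulator of pigment genes, was at 64.3, 57.8 and 60.5 TPM, and OTX2, its partner in RPE specification, at 54.0, 60.9 and 57.7 TPM. PAX6 lay above MITF in every sample, whereas the ranges of MITF and OTX2 overlapped. LHX2 (32.6 ± 4.83 TPM), SIX3 (19.6 ± 2.94), SOX9 (9.86 ± 1.13) and RAX (3.18 ± 1.29) followed with ranges that did not overlap those of their neighbours in the order. Of the 9 list members found, 8 reached 1 TPM and 5 reached 10 TPM, none reached 100 TPM, and TFEC was lowest at 0.218 ± 0.309 TPM. CRX was not analysed here.

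The visual cycle, by which RPE turns all-trans retinol back into 11-cis retinal, was mostly at the low end. RPE65, the isomerase at its centre, was listed at 0 in all 6 libraries. LRAT, which supplies its ester substrate, was at 1.89, 0.895 and 0.580 TPM, the retinal carrier RLBP1 at 0.455, 1.33 and 0.390 TPM, and the retinol receptor STRA6 at 0.860, 0 and 0 TPM. In contrast, 3 retinol and retinal dehydrogenases with wide tissue expression were high: DHRS3 at 140 ± 7.79 TPM, RDH10 at 137 ± 10.7 TPM and RDH11 at 49.9 ± 4.44 TPM. RDH5, the 11-cis retinol dehydrogenase of the RPE, was at 3.20 ± 1.40 TPM. Of the 13 members found, 7 reached 1 TPM and 3 reached 10 TPM (23.1%, against 48.9% of protein-coding genes), and the list median was 1.12 TPM against 9.53 TPM. The members at or above 10 TPM were thus those 3 dehydrogenases, and RGR, RRH and RDH12 were all below 0.3 TPM.

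Pigment genes split in a similar way. TYR, which catalyses the first step of melanin synthesis, was at 0.195, 0.545 and 0.465 TPM, and MLANA at 0.150 ± 0.210 TPM. TYRP1, a melanosomal enzyme, reached 9.92 ± 1.71 TPM and PMEL, the melanosome's fibril protein, 5.08 ± 1.79 TPM. Genes of melanosome traffic and signalling were higher: RAB32 at 179 ± 11.50 TPM, TSPAN10 at 45.4 ± 4.44 TPM, AP3B1 at 39.3 ± 0.626 TPM and the pigment-cell receptor GPR143 at 33.7 ± 1.18 TPM. RAB32 and AP3B1 also act outside pigment cells, whereas GPR143 and TSPAN10 are known from them. The list median, 9.92 TPM over 17 members, was close to that of all protein-coding genes.

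Genes for RPE transport, phagocytosis and secretion had the highest median of the 4 RPE lists, 73.0 TPM over 24 members, and 10 of them reached 100 TPM. CTSD led, and EFEMP1, a fibulin of Bruch's membrane, followed at 1085, 854 and 850 TPM. BSG, the chaperone of lactate transporters, was at 502 ± 52.3 TPM, ITGB5, a subunit of the receptor that binds outer segments, at 201 ± 8.67 TPM, CST3 at 199 ± 37.1 TPM, and TIMP3, a metalloprotease inhibitor of Bruch's membrane, at 186 ± 21.2 TPM. The phagocytic kinase MERTK was at 1.90 ± 0.318 TPM, while its relative AXL was at 167 ± 11.6 TPM, and their ligand GAS6 at 44.8 ± 2.09 TPM. AXL exceeded MERTK by 76.8, 83.2 and 110-fold in the 3 samples.

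Among the channels and carriers of that list, the RPE chloride channel BEST1 was at 4.94, 7.03 and 5.73 TPM. The lactate transporters SLC16A1 (69.9 ± 3.74 TPM) and SLC16A3 (76.2 ± 18.2 TPM) are used by many tissues, and SLC16A8, the one typical of RPE, was at 0.0317 ± 0.0549 TPM. The water channel AQP1 and SERPINF1, which encodes the secreted factor PEDF, were listed at 0 in all 6 libraries, and the potassium channel KCNJ13 was at 0.177 ± 0.233 TPM. Of RPE65, RLBP1, LRAT, TYR, BEST1 and SERPINF1, markers of mature RPE picked with their values known, BEST1 and, barely, LRAT were at or above 1 TPM. The other 4 of these 6, RPE65, SERPINF1, TYR and RLBP1, had means below 1 TPM, whereas PAX6, MITF, OTX2, EFEMP1 and TIMP3 were well above it. Another choice of markers would give another tally. RDH5, TYRP1, PMEL, GPR143, TSPAN10 and MERTK were also above 1 TPM, and KCNJ13, SLC16A8, AQP1, MLANA, RGR and RRH were below it.

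**Figure D2:**
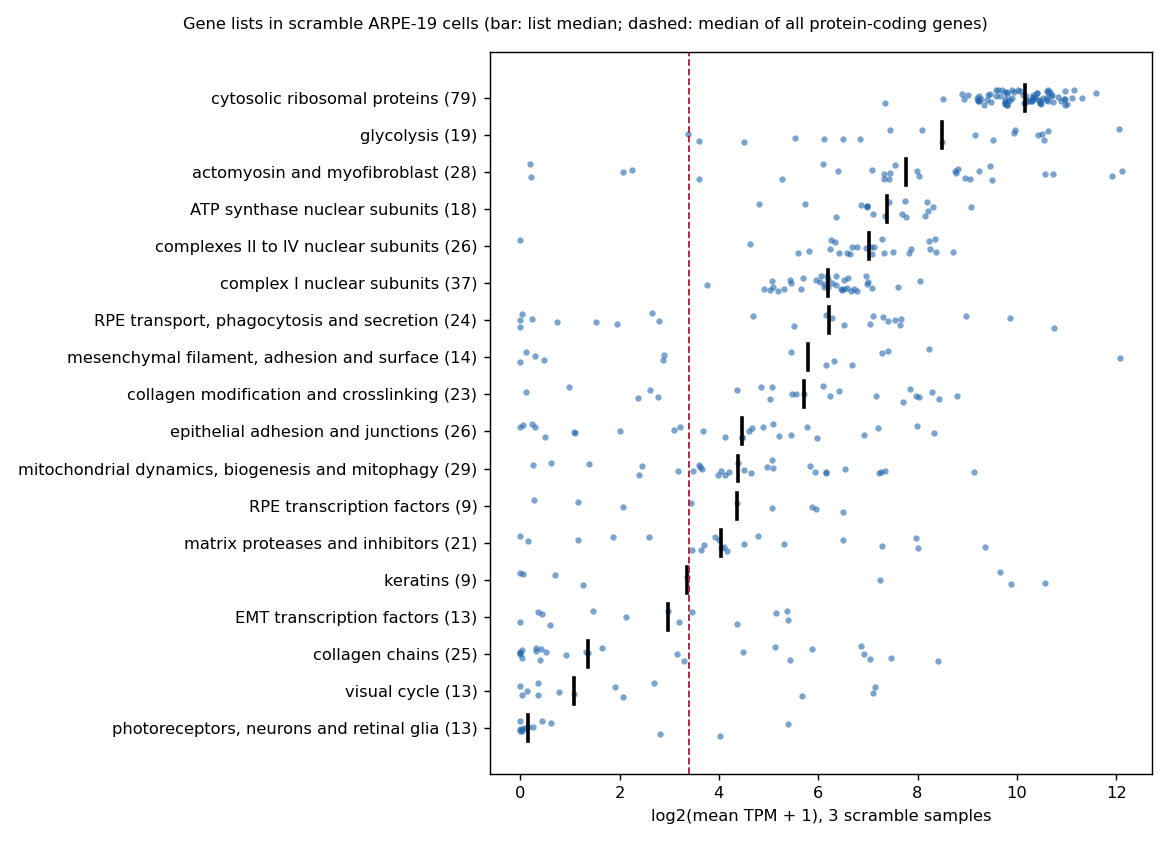
Members of 18 gene lists (rows, with the number of members found) by log2 of mean TPM plus 1 over the 3 scramble samples; each point is a gene, the black bar the list median and the dashed line the median of all protein-coding genes, 9.53 TPM. Ribosomal proteins and glycolysis lie far to the right of the line, and collagen chains, the visual cycle and markers of retinal neurons to its left.

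Epithelial character was seen in the keratins of simple epithelia, which form the intermediate filaments of single-layered cells. KRT7 was at 1631, 1301 and 1590 TPM, KRT8 at 993, 857 and 965 TPM, and its partner KRT18 at 834, 733 and 866 TPM. All 3 were lowest in replicate 2, and the ranges of KRT8 and KRT18 overlapped, with a KRT8 to KRT18 ratio of 1.16 ± 0.0390. KRT80 was at 150 ± 11.9 TPM. The other keratins found were at or below 9.20 TPM: KRT10 at 9.20, KRT19 at 1.40, KRT15 at 0.627 and KRT5 at 0.0400 TPM, with KRT81 listed at 0 in all 6 libraries. KRT6A, KRT14, KRT17 and KRT20 were not analysed here.

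E-cadherin and EPCAM were at the opposite end, unlike most of the adhesion and junction genes found. CDH1, the cadherin of most epithelia, was listed at 0 in one technical replicate of each sample and at 0.08, 0.90 and 0.11 TPM in the other. EPCAM was listed at 0 in all 6 libraries. CDH2, the N-cadherin that RPE and mesenchymal cells use, was at 184, 166 and 154 TPM. Levels of the catenins that link cadherins to actin were high, with CTNNA1 at 253 ± 14.1 TPM and CTNNB1 at 120 ± 8.86 TPM. Tight junction genes lay lower: CLDN1 at 35.9 ± 3.37 TPM, TJP1 at 28.7 ± 1.58 TPM and OCLN at 24.4 ± 1.23 TPM, while CLDN4 was at 0.408 ± 0.137 TPM. The gap junction protein GJA1 was at 147 ± 18.7 TPM, the desmosomal genes DSG2 and DSP at 54.0 ± 2.22 and 42.7 ± 2.18 TPM, and EZR, which anchors microvilli, led the list at 320 ± 7.66 TPM. Of 26 members found, 21 reached 1 TPM and 16 reached 10 TPM (61.5%, against 48.9%).

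Regulators of the epithelial state followed the same division. Polarity genes found in most cell types were present, with DLG1 at 113 ± 12.3 TPM, SCRIB at 34.7 ± 5.92 TPM and PARD3 at 30.4 ± 2.74 TPM. The epithelial splicing factors ESRP2 (0.942 ± 0.740 TPM) and ESRP1 (0.143 ± 0.145 TPM) were below 1 TPM, as were GRHL1 (0.418 ± 0.508 TPM) and EHF (0.325 ± 0.0889 TPM). SPINT1, an epithelial protease inhibitor, was listed at 0 in all 6 libraries. GRHL2, OVOL1 and OVOL2 were not analysed here.

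Mesenchymal genes were led by VIM, at 3954, 4247 and 4689 TPM, above KRT8 by 3.98, 4.96 and 4.86-fold in the 3 samples. CD44, the hyaluronan receptor, was at 300 ± 15.9 TPM, ALCAM at 154 ± 5.64 TPM, CDH11, a mesenchymal cadherin, at 102 ± 0.602 TPM, and the ectoenzyme NT5E at 79.1 ± 8.34 TPM. The platelet-derived growth factor receptors differed in level, PDGFRB being at 42.5 ± 2.88 TPM and PDGFRA at 0.233 ± 0.155 TPM. The fibroblast marker THY1 was at 0.0817 ± 0.0437 TPM and DES, the muscle filament, was listed at 0. Of 14 members found, 8 reached 10 TPM (57.1%) and 5 reached 100 TPM (35.7%, against 6.29%).

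The transcription factors that can drive EMT were low by comparison. SNAI1, the repressor best known for silencing CDH1, was at 0.21 and 0.21 TPM in the libraries of replicate 1, 0.30 and 0.62 TPM in those of replicate 2, and 0.18 and 0.18 TPM in those of replicate 3. ZEB1 was at 8.23, 9.27 and 7.20 TPM, ZEB2 at 17.8, 21.6 and 19.8 TPM, and TWIST1 at 11.4, 7.73 and 10.8 TPM. ZEB2 was above ZEB1 and TWIST1 in each sample, and the ranges of TWIST1 and ZEB1 overlapped. The E proteins TCF12 (41.0 ± 6.08 TPM) and TCF3 (40.2 ± 10.3 TPM) and SOX4 (34.6 ± 4.85 TPM) stood highest and could not be ordered, since their ranges overlapped. The list median was 6.83 TPM over 13 members, 4 of them at 10 TPM or more (30.8%), and SNAI3 was listed at 0 in all 6 libraries. SNAI2, TWIST2, FOXC2 and GSC were not analysed here.

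Actomyosin and myofibroblast genes, called contractile genes here, were abundant as a group. Of these, 20 of 28 reached 100 TPM (71.4%, against 6.29%), the median was 220 TPM, and the list held 3.11% ± 0.180 of the protein-coding TPM. A large part of that share is ACTG1 and ACTB, the cytoplasmic actins of the housekeeping set above, so it does not measure contractile character. Besides ACTG1 and ACTB, the myosin light chain MYL6 was at 1696 ± 94.7 TPM, tropomyosin TPM1 at 1512 ± 185 TPM, FLNA at 726 ± 39.5 TPM and CNN3 at 700 ± 36.9 TPM. Of genes used as signs of myofibroblasts, the smooth muscle actin ACTA2 was at 93.7, 78.3 and 77.7 TPM and TAGLN at 584, 350 and 378 TPM, both highest in replicate 1. The smooth muscle genes CNN1 (0.143 ± 0.248 TPM) and MYH11 (0.160 ± 0.135 TPM) were below 1 TPM.

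**Figure D3:**
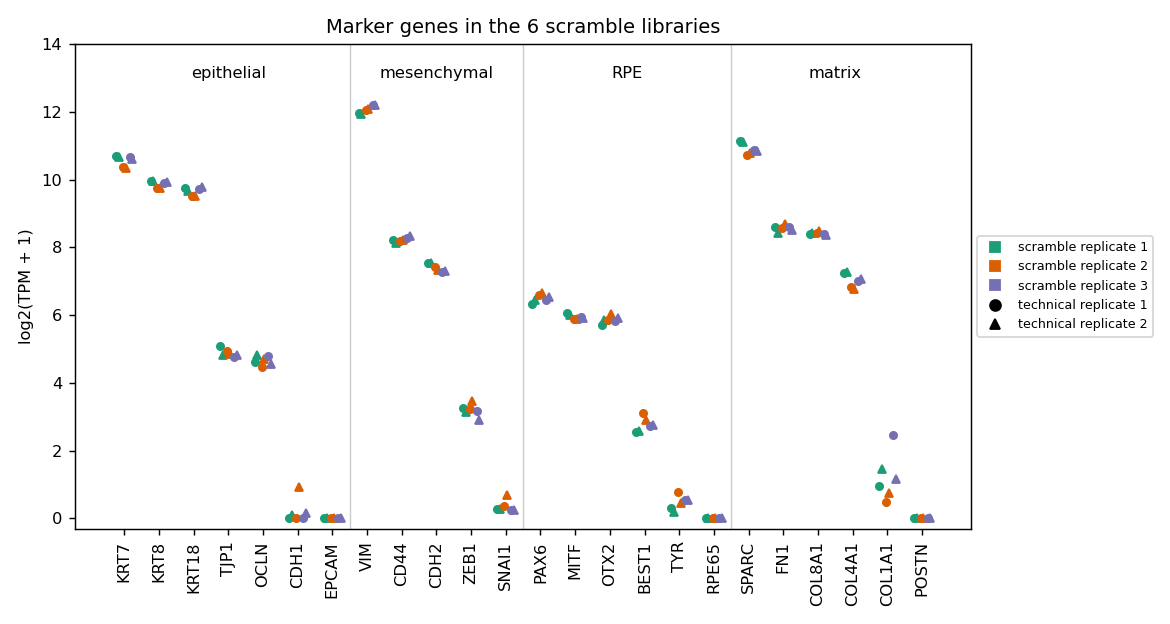
Log2 of TPM plus 1 for 24 epithelial, mesenchymal, RPE and matrix genes in each of the 6 scramble libraries; colours are the 3 biological samples and symbols the technical replicates. Points of one gene lie close together except at the lowest levels (CDH1, SNAI1, COL1A1), and KRT7, VIM and SPARC are high while EPCAM, RPE65 and POSTN are listed at 0.

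The collagen genes were few and selective. COL8A1, a short-chain collagen of basement membranes such as Bruch's, was highest at 340, 349 and 333 TPM. COL11A1, a fibrillar chain, was at 213, 160 and 155 TPM, COL4A1 and COL4A2, the basement membrane network chains, at 131 ± 20.8 and 116 ± 8.34 TPM, and the fibril-associated COL12A1 at 120 ± 8.07 TPM. The main fibrillar collagens of fibroblasts were not among them: COL1A1 was at 1.35, 0.550 and 2.87 TPM and COL3A1 at 0.0283 ± 0.0491 TPM. COL6A2, COL10A1 and COL13A1 were listed at 0 in all 6 libraries. COL4A4, of the network typical of specialised basement membranes, was at 42.2 ± 6.62 TPM and its partner COL4A3 at 7.91 ± 0.997 TPM. Of 25 chains found, 14 reached 1 TPM, 9 reached 10 TPM (36.0%) and 5 reached 100 TPM, so the list median, 1.59 TPM, lay below the 9.53 TPM of all protein-coding genes. COL1A2 was not analysed here.

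Laminins and other basement membrane genes had a median of 15.0 TPM over 15 members. LAMB2 was at 261 ± 24.8 TPM, LAMC1 at 127 ± 7.30 TPM, the proteoglycan AGRN at 125 ± 17.2 TPM, LAMA4 at 85.2 ± 5.40 TPM and LAMB1 at 48.7 ± 4.16 TPM. LAMA1 and LAMA2 were at 0.818 ± 0.160 and 0.0267 ± 0.0252 TPM, and LAMC3 was listed at 0 in all 6 libraries. The chains LAMA4, LAMB2, LAMB1 and LAMC1 were therefore higher than LAMA3 (15.0 ± 2.78 TPM) and LAMB3 (9.92 ± 0.643 TPM), chains of the epidermal type. Levels of single chains do not show which laminin trimers were made.

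Matrix glycoproteins were more abundant than collagens. After TGFBI and SPARC came FN1, the fibronectin that cells assemble into fibrils, at 364, 396 and 374 TPM, CCN1 at 323 ± 38.9 TPM, CCN2 at 406, 234 and 245 TPM, and THBS1 at 155 ± 12.2 TPM. CCN2, a growth factor target of mechanical and TGF-beta signals, was highest in replicate 1. In contrast, POSTN, which marks activated stroma, was listed at 0 in all 6 libraries, SPP1 and THBS2 were at 0.543 ± 0.474 and 0.295 ± 0.0482 TPM, and tenascin C was likewise below 1 TPM. The 19 members found held 1.02% ± 0.0592 of the protein-coding TPM, against 0.187% ± 0.0119 for the 25 collagen chains. Among elastic fibre genes EFEMP2 (257 ± 11.9 TPM), LTBP3 (189 ± 7.45 TPM) and FBN1 (128 ± 18.5 TPM) were highest and EMILIN1 lowest at 0.118 ± 0.0843 TPM. Surface proteoglycans were present, with SDC2 at 132 ± 10.9 TPM and GPC1 at 71.8 ± 7.02 TPM, while the secreted VCAN, LUM and ASPN were below 1 TPM and BCAN was listed at 0 in all 6 libraries.

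Enzymes that modify and crosslink collagen were high although few collagens were. P4HB, the disulfide isomerase subunit of prolyl hydroxylase, was at 407, 451 and 476 TPM, and the crosslinking oxidases LOX, LOXL2 and LOXL1 at 347 ± 44.3, 249 ± 9.56 and 228 ± 2.72 TPM. The collagen chaperone SERPINH1 was at 207 ± 9.12 TPM. LOXL3 and LOXL4 were at 0.985 ± 0.746 and 0.0883 ± 0.0765 TPM. The list's 23 genes were all found, 18 reached 10 TPM (78.3%) and the median was 51.5 TPM.

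Tissue inhibitors of metalloproteases were above the metalloproteases. TIMP2 was at 666, 657 and 634 TPM and TIMP1 at 251 ± 28.2 TPM. The highest matrix metalloprotease found was MMP2, a gelatinase, at 40.1, 35.2 and 41.0 TPM, so that TIMP2 exceeded it by 16.9 ± 1.64-fold. MMP14, the membrane protease that activates MMP2 together with TIMP2, was at 15.0 ± 1.16 TPM. MMP3 was at 0.117 ± 0.202 TPM and MMP17 was listed at 0 in all 6 libraries, and MMP1 and MMP9 were not analysed here.

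Nuclear genes of the respiratory chain were uniformly present. All 37 complex I subunit genes reached 10 TPM, from NDUFV3 at 12.5 ± 0.205 TPM to NDUFS5 at 265 ± 26.0 TPM, with a median of 72.8 TPM. Of 26 genes of complexes II to IV, 25 reached 10 TPM and the median was 128 TPM, led by COX7C at 416 ± 43.2 TPM. The exception was COX6A2, the heart and muscle form of a complex IV subunit, listed at 0 in all 6 libraries beside its widely expressed counterpart COX6A1 at 233 ± 21.7 TPM. The 18 ATP synthase genes had a median of 166 TPM, and the catalytic subunit ATP5F1B was at 540, 537 and 530 TPM, a coefficient of variation of 0.918%. These 3 lists lay at median percentiles of 91.0, 95.3 and 96.5 among protein-coding genes.

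The 18 genes listed for the tricarboxylic acid cycle, with enzymes that feed it, lay lower, with a median of 40.1 TPM and none at 100 TPM. They ranged from pyruvate carboxylase (PC) at 2.57 ± 1.85 TPM to PDHB at 99.9 ± 5.96 TPM, both of which feed the cycle. CS, citrate synthase, was at 93.9 ± 2.60 TPM. Glycolysis was higher: 13 of its 19 genes reached 100 TPM and the list median was 360 TPM. After GAPDH came ALDOA at 1581 ± 124 TPM, ENO1 at 1502 ± 72.2 TPM, LDHA at 1444 ± 39.9 TPM and PKM at 1383 ± 87.7 TPM. The glucose transporter SLC2A1 was at 360 ± 13.97 TPM, and HK1 at 68.0 ± 5.60 TPM was above HK2 at 9.34 ± 1.38 TPM. Together the genes of the glycolysis list held 2.57% ± 0.0615 of the protein-coding TPM, against 0.154% ± 0.00663 for the 18 genes of the cycle list.

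Mitochondrial carriers and import genes all reached 10 TPM (25 of 25), led by the phosphate carrier SLC25A3 at 700 ± 46.2 TPM, the ADP/ATP carriers SLC25A5 and SLC25A6 at 308 ± 4.73 and 180 ± 22.6 TPM, and the outer membrane channel VDAC1 at 172 ± 9.34 TPM. The muscle-type ADP/ATP carrier SLC25A4 was at 34.9 ± 4.17 TPM. Mitochondrial chaperones, proteases and antioxidants also all reached 10 TPM (23 of 23), with the chaperonin HSPD1 at 397 ± 5.26 TPM, PRDX5 at 264 ± 0.835 TPM and GPX4 at 243 ± 59.1 TPM. GPX4, which removes lipid peroxides, varied most of these 3, at 193, 229 and 308 TPM.

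Both genes silenced elsewhere in the series were well above the median here. PINK1 was at 53.0 and 54.8 TPM in the libraries of replicate 1, 55.7 and 59.8 TPM in those of replicate 2, and 55.6 and 56.0 TPM in those of replicate 3. NFE2L2 was at 91.1 and 87.2, 70.3 and 78.3, and 79.0 and 78.0 TPM. The lowest NFE2L2 value lay above the highest PINK1 value, and NFE2L2 exceeded PINK1 by 1.66, 1.29 and 1.41-fold in the 3 samples. They ranked 1163 (NFE2L2) and 1766 (PINK1) among the protein-coding genes.

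Other genes of mitochondrial turnover were led by the autophagy receptor SQSTM1 at 559 ± 11.5 TPM, the mitophagy receptors BNIP3L (162 ± 15.4 TPM), PHB2 (148 ± 12.9 TPM) and BNIP3 (92.4 ± 8.69 TPM), and the fission adaptor MFF (152 ± 11.01 TPM). OPTN and CALCOCO2, which bind ubiquitin on damaged mitochondria, were at 69.9 ± 2.20 and 60.6 ± 7.01 TPM. The biogenesis coactivators PPARGC1A and PPARGC1B were at 1.62 ± 0.451 and 0.197 ± 0.180 TPM. Receptors of mitophagy were thus among the highest of the 29 genes, and the coactivators of biogenesis among the lowest. Genes encoded by mitochondrial DNA were not analysed here. Near-identical nuclear copies of them carried values that reads of the true genes could share, and are uncertain: MTATP6P1 was at 771 ± 42.4 TPM, MTND1P23 at 549 ± 46.3 TPM and MTCO2P12 at 156 ± 1.09 TPM.

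Genes of the NFE2L2 (NRF2) pathway, its targets and partners, had a median of 55.8 TPM and all 29 members found reached 1 TPM. The ferritin chains FTH1 and FTL (1179 ± 117 TPM) led, followed by GSTP1 at 857 ± 53.5 TPM, TXNRD1 at 514 ± 16.3 TPM and NQO1 at 160 ± 6.68 TPM. GCLM, SLC7A11 and HMOX1, of glutathione and heme metabolism, were near 11 TPM, at 10.9 ± 0.967, 10.9 ± 3.01 and 10.8 ± 2.34 TPM.

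Secreted factors included IGFBP7 at 1371 ± 132 TPM, MIF at 722 ± 91.3 TPM and IL18 at 656 ± 72.8 TPM. TGFB2, the TGF-beta form most made by the eye, was at 144 ± 6.31 TPM, whereas CXCL1 and CSF2 were listed at 0 in all 6 libraries and CXCL8 was at 0.0650 ± 0.0568 TPM. Complement regulators were led by CD59 at 387 ± 8.64 TPM and CLU at 309 ± 13.8 TPM, and the central component C3 was at 16.8 ± 2.61 TPM. Genes transcribed in dividing cells were present, with CCNB1 at 184 ± 6.88 TPM, TOP2A at 75.7 ± 6.31 TPM and MKI67 at 40.3 ± 2.28 TPM, and the cycle inhibitor CDKN1A was at 219 ± 8.70 TPM.

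Few markers of other cell types reached 1 TPM. Of 16 immune and blood genes 3 were found: CD68, a lysosomal protein of many cells, at 30.3 ± 9.80 TPM, CSF1R at 0.723 ± 0.581 TPM and PTPRC, the pan-leukocyte marker, listed at 0 in all 6 libraries. The 4 endothelial markers found summed to 1.51, 1.36 and 1.34 TPM in the 3 samples, most of it KDR (1.14 ± 0.150 TPM), with VWF at 0.0550 ± 0.0608 TPM. Of the 13 photoreceptor, neuron and glia markers found, 3 reached 1 TPM: TUBB3 (40.8 ± 3.83 TPM), MAP2 (15.2 ± 1.08 TPM) and PDE6B (6.02 ± 1.80 TPM). Of 5 melanocyte markers found, PMEL alone (5.08 ± 1.79 TPM) reached 1 TPM. GNAT1, RBFOX3 and SLC1A3 were listed at 0 in all 6 libraries. TUBB3 and MAP2 are cytoskeletal genes of neurons and PDE6B is a subunit of the rod phosphodiesterase, while GNAT1 is the rod transducin and RBFOX3 a neuronal splicing factor. In bulk samples fewer cells with a transcript and less RNA per cell cannot be told apart.

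Replicate scatter was measured as the SD of log2(TPM + 1). Between the 3 biological samples its median was 0.12 over the 4913 identifiers with a mean of at least 20 TPM, a coefficient of variation of 8.61%. Between technical replicates of the same sample it was 0.11, which is a spread of single libraries, whereas each sample is a mean of 2. Protein-coding genes from 1 to 5 TPM had medians of 0.25 between samples and 0.29 between technical replicates, those from 20 to 100 TPM 0.12 and 0.12, those from 100 to 1000 TPM 0.098 and 0.066, and the 76 genes at 1000 TPM or more 0.13 and 0.026. When the technical SD was scaled to a mean of 2 libraries, the SD between samples exceeded it in 60.1% of protein-coding genes from 1 to 5 TPM, 62.6% from 5 to 20 TPM, 67.9% from 20 to 100 TPM, 81.4% from 100 to 1000 TPM and 98.7% at 1000 TPM or more. This percentage was thus largest at high levels. At 1000 TPM or more, 44 of the 76 genes were cytosolic ribosomal proteins, which leaned together to the same samples (below). The rest of that range was not examined apart. The percentage that technical spread alone would give was not computed. Across the 4656 protein-coding genes from 20 TPM, Pearson's r of log2(TPM + 1) was 0.9785 to 0.9892 between technical replicates and 0.9711 to 0.9784 between libraries of different samples, as a description over genes, which are not independent.

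**Figure D4:**
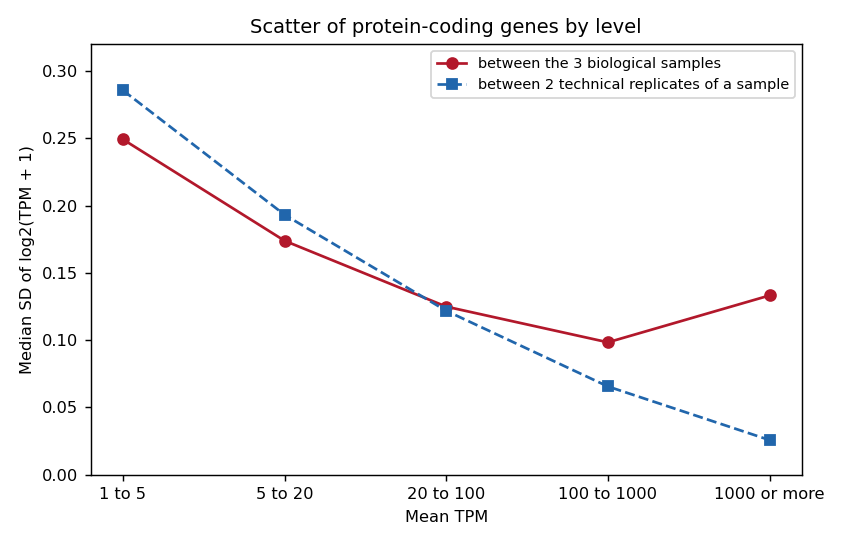
Median SD of log2(TPM + 1) over protein-coding genes in 5 ranges of mean TPM, between the 3 biological samples (red circles) each a mean of 2 libraries, and between the 2 technical replicates of a sample (blue squares, single libraries). The technical SD falls steadily from 0.29 to 0.026, while the biological SD levels off near 0.1 and is 0.13 in the highest range. Of the 76 genes in that highest range, 44 are cytosolic ribosomal proteins.

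The smallest SDs at 20 TPM or more were those of MTIF2, a mitochondrial initiation factor, at 27.0, 26.9 and 27.0 TPM, ESYT2 at 36.2, 36.2 and 36.2 TPM and XRCC6, the DNA repair protein Ku70, at 253, 252 and 252 TPM. SAE1, PRDX5, ADIPOR1, CMTM6, UCK1, PABPC1 and CNPPD1 completed the 10 with the smallest SD. MTIF2 had an SD of 0.0016 between samples and 0.15 between technical replicates, so its samples lay closer together than its technical replicates did. The technical SD was the larger in each of these 10. As the extremes of 4913 SDs, each over 3 samples, they do not show that these genes are steady. The genes often used as references had a median SD of 0.084 over 16 members. B2M was an exception among them, at 782, 1192 and 1119 TPM.

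At the other end, the 20 identifiers with the largest SD included no protein-coding gene, and all 20 were listed at 0 in at least 1 library. They were small nucleolar RNAs such as SNORD86 (0, 183 and 0 TPM in replicates 1, 2 and 3), SNORD62 (0, 119 and 0 TPM) and SNORA7A (0, 35.1 and 91.9 TPM), processed pseudogenes such as RPL41P5 (102, 0 and 50.7 TPM) and identifiers without a name. Of the 4913 identifiers at 20 TPM or more, 41 were listed at 0 in at least 1 library, and 1 of these was protein-coding. The largest differences between technical replicates were again in such identifiers, among them RNVU1-7 and ENSG00000207418, whose values were the same in all 6 libraries. In all, 41 identifiers at 1 TPM or more shared their 6 values with another, in sets of up to 7. Their values are uncertain, and why they are shared was not tested.

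Among protein-coding genes the largest SDs belonged to interferon-stimulated genes, which are induced together by type I interferon and which restrict viruses. In 14 of the 20 protein-coding genes with the largest SD the gene was on the list of 45 interferon-stimulated genes, a list that was drawn up with earlier results of these samples known. ISG15, a ubiquitin-like protein, was at 12.7 and 12.3 TPM in the libraries of replicate 1, 102 and 98.0 TPM in those of replicate 2, and 116 and 106 TPM in those of replicate 3. IFI6, an antiviral membrane protein, was at 245 and 254, 1261 and 1279, and 1167 and 1183 TPM. IFIT1, which binds foreign RNA caps, was at 13.8 and 11.9, 87.9 and 88.2, and 76.6 and 81.9 TPM. In each of these genes both libraries of replicate 1 lay far below the other 4, and technical replicates lay close together.

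BST2 (tetherin), which holds budding virions at the membrane, was at 5.64, 48.4 and 32.5 TPM in the 3 samples. IFI27 was at 4.65, 49.4 and 32.4 TPM, and IFITM3, a barrier to virus entry, at 277, 673 and 678 TPM. Of the 4656 protein-coding genes at 20 TPM or more, 12 (0.258%) were at least 2-fold lower in replicate 1 than in both other samples. This was measured on the log2(TPM + 1) scale. All 12 were on the interferon list. Since that list was drawn up with earlier results of these samples known, this overlap is not independent support. None of the 4656 genes was 2-fold higher in replicate 1 than in both. In replicate 2 3 genes were 2-fold higher than in both others (FAM133B, RCCD1 and XPO5) and in replicate 3 1 gene was (IMMP1L), none of them on the list. RCCD1 and IMMP1L each rested on 1 library. RCCD1 was at 14.9 and 61.7 TPM in the libraries of replicate 2, and IMMP1L at 17.9 and 70.55 TPM in those of replicate 3.

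Of the 42 interferon-stimulated genes at 1 TPM or more, 40 were lowest in replicate 1 (95.2%, against 34.3% of the 11616 protein-coding genes at that level). In 37 both libraries of replicate 1 lay below the other 4, which was so for 11.6% of those protein-coding genes. The median ratio of replicates 2 and 3 to replicate 1 was 2.88-fold, against 1.01-fold for protein-coding genes, and 32 of the 42 were at 2-fold or more, against 2.02%. The ratio ranged from 0.963 for IFIT5 (20.9 TPM in replicate 1 and lower in both others) to 23.9 for IFITM1 (1.02, 24.8 and 23.7 TPM). TRIM22, IRF9, LGALS3BP, SP110 and STAT2 came next above IFIT5, with ratios from 1.18 for TRIM22 to 1.33 for STAT2. The list therefore differed between samples of one group by more than it did between their technical replicates, and 1 of the 3 samples stood apart. Because the list was drawn up with earlier results of these samples known, these counts describe it and do not test it. Whether replicate 1 was cultured, transfected or handled apart from the others is not stated in the labels.

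**Figure D5:**
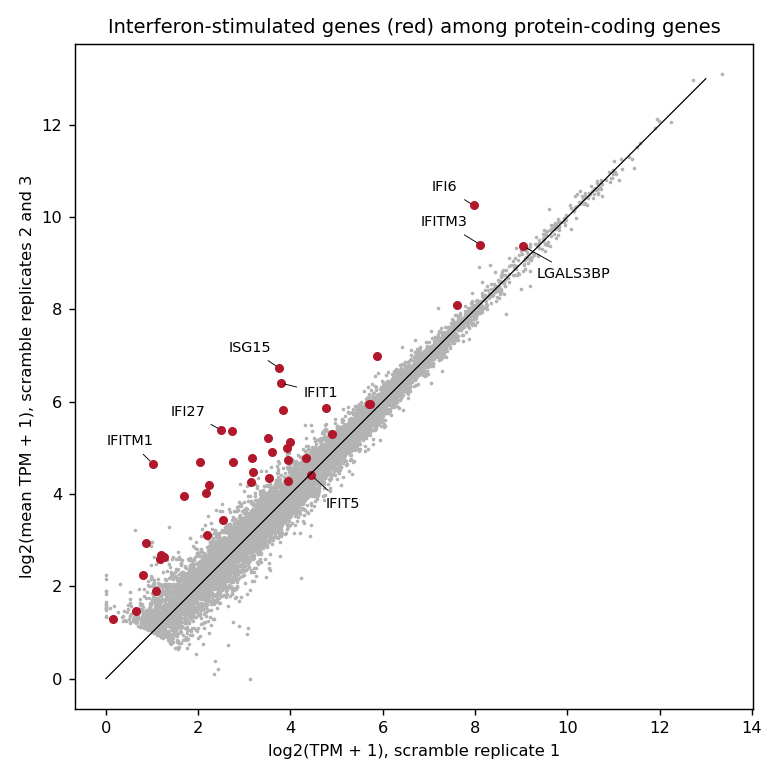
Log2(TPM + 1) in scramble replicate 1 (x) against that of the mean of replicates 2 and 3 (y) for protein-coding genes at 1 TPM or more; red points are the 42 interferon-stimulated genes, grey points the rest and the line marks equal levels. Most red points lie above the line, with IFITM1 farthest from it, and IFIT5 lies on it.

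The promoters of the 5 interferon-stimulated genes with the largest SD at 20 TPM or more show a sequence that this gene class shares. Stretches of 80 bases upstream of the start are given 5′ to 3′ in the direction of the gene, from the RefSeq promoter table of build GRCh38.p14, with matches to GAAANNGAAA or its reverse complement TTTCNNTTTC in capitals. This is the core of the interferon-stimulated response element, at which the complex that includes STAT2 and IRF9 binds.
ISG15 (chr1:1013352-1013431, plus strand, -145 to -66 from the start): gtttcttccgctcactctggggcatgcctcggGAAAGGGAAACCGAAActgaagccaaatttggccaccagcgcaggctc
IFI27 (chr14:94110599-94110678, plus strand, -137 to -58 from the start): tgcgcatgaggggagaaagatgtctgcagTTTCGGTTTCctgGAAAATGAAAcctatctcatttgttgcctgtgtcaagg
BST2 (chr19:17405713-17405792, minus strand, -162 to -83 from the start): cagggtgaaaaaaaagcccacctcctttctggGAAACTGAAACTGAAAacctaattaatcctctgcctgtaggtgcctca
IFIT1 (chr10:89392478-89392557, plus strand, -145 to -66 from the start): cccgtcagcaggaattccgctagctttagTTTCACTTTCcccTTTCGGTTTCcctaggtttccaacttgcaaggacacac
IFI6 (chr1:27672273-27672352, minus strand, -160 to -81 from the start): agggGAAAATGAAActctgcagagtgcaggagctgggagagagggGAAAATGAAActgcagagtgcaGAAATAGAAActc
Within these stretches ISG15 and BST2 hold 2 overlapping matches, IFI27 and IFIT1 hold 2 separate ones, and IFI6 holds 3.

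Both strands of the 300-base window from 250 bases before to 50 after each start were searched. Of the 45 listed genes 36 had a promoter in the table, and 26 of them (72.2%) held at least 1 match in any listed start. The same was found for 4.04% of the 11541 protein-coding genes of the expression table with a promoter, and for 3.57% of all 35116 promoters. All 10 of the 12 genes 2-fold lower in replicate 1 that had a promoter held a match, as a description of genes chosen by their values. Listed genes that were not 2-fold lower held matches too, among them IFIT5 with 3 (ratio 0.963), LGALS3BP with 1 (ratio 1.26) and EIF2AK2 with 1 (ratio 1.38). A match is a run of letters and does not show that a factor was bound in these cells.

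Other gene lists also leaned to 1 sample, by far less. Of the 79 ribosomal protein genes 72 were lowest in replicate 2 (91.1%, against 31.1% of protein-coding genes) and 73 were highest in replicate 3 (92.4%, against 32.1%). Their share of protein-coding TPM was 16.6%, 15.5% and 17.9%. The median SD of a member was 0.15, against 0.12 for protein-coding genes at 20 TPM or more. Protein-coding genes as a whole held more of the total TPM in replicate 3 and less in replicate 2, in the same order. Shares of protein-coding TPM do not depend on that total. The counts of lowest and highest members were made on TPM, and the part of that order in them was not tested. Complex I genes were highest in replicate 3 in 25 of 37 cases (67.6%), and 23 of 37 were lowest in replicate 1 (62.2%, against 34.3%).

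Contractile genes leaned the other way, with 18 of 26 highest in replicate 1 (69.2%, against 33.8%). TAGLN, MYL9 (232, 139 and 189 TPM) and ACTC1, a cardiac actin (7.41, 1.33 and 0.940 TPM), had the widest gaps among those named, together with CCN2 and IGFBP3 (511, 380 and 310 TPM), a binder of insulin-like growth factors. Replicate 1 was thus lowest for interferon-stimulated genes and highest for most contractile genes. Cell cycle genes were lowest in replicate 1 in 23 of 34 cases (67.6%). With 1 sample on each side, none of these leanings can be assigned to more than that sample.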

How the data were processed

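The expression table holds TPM values that the authors deposited for 24 libraries. Per the submitters' processing notes, STAR, RSEM and edgeR were used with GRCh37 (hg19). No versions, roles or filters on low values are given in these notes. Per the labels' protocols, total RNA was made into stranded libraries with an mRNA kit and sequenced in paired-end mode. All 24 columns were mapped to samples by name (0 were left over). The labels call the 3 samples biological replicates, and nothing says whether they were separate cultures.

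Technical replicates were averaged. Gene names came from a table of stable identifiers (22789 of 24053 matched, 19325 with a symbol), and gene classes from GENCODE 29 by stable identifier (1112 not matched). GENCODE 29 is of another build, and no coordinates were taken from it. Scatter used log2(TPM + 1), with a pseudocount of 1 and a minimum mean of 20 TPM, and recovered known SDs on simulated data. No test was made, since no groups were compared. Python 3.11.15, pandas 2.3.3 and numpy 2.4.6 were used.

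The genes named are the 30 most abundant identifiers, PINK1 and NFE2L2, up to 6 members at the top and bottom of each list, 13 markers (CDH1, VIM, SNAI1, ZEB1, RPE65, MITF, OTX2, TYR, BEST1, KRT8, KRT18, FN1 and COL1A1) and the extremes of the scatter. Members and lists were chosen with earlier results of these data known. Protein-coding genes with large scatter, the promoters and other genes outside that choice were picked once their values were known. Some list members are not reported here.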

Additional observations from a re-analysis of the deposited data

How the results depend on the processing

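The depth behind the TPM values is unknown, so levels near 0 cannot be told from absence, and 3 samples give an imprecise SD for any one gene. No paired analysis was possible because no groups were compared.

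With ENSG00000226958 removed and the rest rescaled to the same total, 1589 identifiers reached 100 TPM and 142 reached 1000 TPM, and the first identifier, the first 10, the first 100 and the first 1000 held 3.40%, 12.4%, 32.6% and 64.8% of all TPM. Single-gene TPM rose by construction under this setting, while the median percentile among protein-coding genes of every list moved by less than 1 SD between samples, for example from 42.9 to 43.1 for EMT transcription factors and from 23.2 to 23.1 for collagen chains. If a gene counted when listed at 0 in at least 1 library of each sample, 7133 identifiers did.

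The median SD of log2(TPM + 1) was 0.14 with that identifier removed, 0.14 and 0.15 with technical replicate 1 or 2 alone, 0.11 with a pseudocount of 5, 0.17 with a minimum mean of 1 TPM and 0.17 with no minimum. It was 0.095 to 0.11 with 1 sample left out, where an SD over 2 values is lower by construction.

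Of 36 gene lists, 30 kept their median percentile within 1 SD between samples under every alternative tried, and the largest shift of any list was 7.13 percentage points, for interferon-stimulated genes without replicate 1. For mitochondrial dynamics, biogenesis and mitophagy the median percentile was 69.6 and 63.6 with technical replicate 1 or 2 alone and 65.1 to 70.3 with 1 sample left out. For mitochondrial chaperones, proteases and antioxidants it was 88.0 and 88.7 with technical replicate 1 or 2 alone, 88.6 with the median over samples and 88.2 to 88.7 with 1 sample left out. For photoreceptors, neurons and retinal glia it was 2.67 with technical replicate 2 alone and 3.84 with the median over samples. With 1 sample left out, complex I ranged from 91.17 to 91.73, reference genes from 98.95 to 98.98 and complement genes from 52.4 to 57.6. The cause was not tested.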

Other observations

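Long non-coding RNAs reached levels of abundant mRNAs. GAS5, the host of many small nucleolar RNAs, was at 379 ± 131 TPM, and the nuclear RNA MALAT1 at 185 ± 16.6 TPM (SD, n = 3). Of 17 listed long non-coding RNAs found, all reached 1 TPM and 6 reached 100 TPM, with a median of 64.2 TPM. Replication-dependent histone genes, whose mRNAs mostly lack a poly(A) tail, had a median of 10.3 TPM over 10 members, with H4C3 standing apart at 344 ± 21.7 TPM.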
